A study of Drosophila melanogaster with 3 samples.

Results

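The Enhancer of split complex is a gene cluster on chromosome arm 3R of Drosophila melanogaster, and 10 of its genes were taken by symbol from the 13968 protein-coding genes of the annotation. The 10 comprised 7 genes of basic helix-loop-helix (bHLH) proteins, E(spl)mdelta-HLH, E(spl)mgamma-HLH, E(spl)mbeta-HLH, E(spl)m3-HLH, E(spl)m5-HLH, E(spl)m7-HLH and E(spl)m8-HLH, and 3 genes of Bearded family (BFM) proteins, E(spl)malpha-BFM, E(spl)m2-BFM and E(spl)m4-BFM. They are called mdelta to m8 hereafter. The study measured, by chromatin immunoprecipitation and sequencing (ChIP-seq), where Trem sits on DNA in whole embryos aged 0 to 14 h, from a transgenic line carrying Trem with GFP at the C terminus. One label gives an anti-GFP antibody and another names trem itself, and there were 3 biological replicates. Whole embryos of mixed stages were pooled, so the cells in which a peak arose cannot be told apart, and all samples carried the transgene and formed 1 group, with no control list analysed here. A peak list for each replicate, a list for the pooled replicates and a list filtered for irreproducible discovery rate (IDR) were deposited.

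The complex is a classical target of Notch signalling. When Notch is cleaved, its intracellular domain enters the nucleus, joins the DNA-binding protein Su(H) and its coactivator Mastermind, and switches these genes on in cells that are to be kept from a neural fate. The bHLH proteins then repress proneural genes with the corepressor Groucho, while the Bearded family proteins bind and inhibit Neuralized, the ubiquitin ligase that activates the Notch ligand Delta. Trem (trade embargo) is a zinc-finger protein known for its role in starting meiotic recombination in oocytes.

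An IDR summit, the deposited position of highest signal within a peak, lay within 500 bp of the transcription start site (TSS) of 6 of the 10 genes. They were mdelta, mbeta, m2, m3, m7 and m8, and the other 4, mgamma, malpha, m4 and m5, had none. Over all protein-coding genes the share was 41.7%, and over those with 1 annotated TSS, as each of the 10 genes has, it was 36.4%. With a window of 250 bp the count was 2 of the 10, mbeta and m8, against 36.9% of all protein-coding genes, so whether the members stood above or below all genes turned with the window. The members' count was not tested, since neighbouring genes of 1 cluster are not separate observations. By family, 5 of 7 bHLH genes and 1 of 3 Bearded family genes had such a peak. Among the 7477 strongest peaks of each replicate list, as many as the IDR list holds, 5, 5 and 7 of the genes had a summit in replicates 1, 2 and 3, a mean of 5.67 ± 1.15 (SD, n = 3), against 40.8% ± 0.498 of all protein-coding genes.

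The sequences at the 6 summits are printed because they show how the peaks differed in base composition. Each runs 5′ to 3′ on the strand of its gene, from 60 bp before to 60 bp after the IDR summit, except at m8, where it stops at the TSS. Capitals mark TATA boxes (TATAAA), E-boxes (CANNTG) and GAGA elements (GAGAG), on either strand. The coordinates are of dm6 and the bases are from RefSeq. The windows were chr3R:25997198-25997318 for mdelta, chr3R:26021314-26021434 for m3, chr3R:26036610-26036730 for m7, chr3R:26017901-26018021 for m2, chr3R:26006163-26006283 for mbeta and chr3R:26040134-26040239 for m8, with m2 and mbeta on the minus strand.
mdelta: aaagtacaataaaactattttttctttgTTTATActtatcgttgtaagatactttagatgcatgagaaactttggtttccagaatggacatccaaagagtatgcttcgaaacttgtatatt
m3: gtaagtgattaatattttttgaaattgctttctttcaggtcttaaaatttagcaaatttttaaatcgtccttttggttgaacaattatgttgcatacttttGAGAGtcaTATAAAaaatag
m7: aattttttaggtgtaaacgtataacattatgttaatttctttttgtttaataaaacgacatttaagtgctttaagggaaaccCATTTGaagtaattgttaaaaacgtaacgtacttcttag
m2: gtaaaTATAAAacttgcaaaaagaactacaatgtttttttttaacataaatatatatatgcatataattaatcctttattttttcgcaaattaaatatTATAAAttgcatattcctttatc
mbeta: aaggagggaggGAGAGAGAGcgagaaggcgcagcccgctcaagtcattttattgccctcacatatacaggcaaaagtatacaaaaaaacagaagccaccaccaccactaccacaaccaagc
m8: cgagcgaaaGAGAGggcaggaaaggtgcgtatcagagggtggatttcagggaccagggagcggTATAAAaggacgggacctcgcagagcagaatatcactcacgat

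The first 4 windows are long runs of A and T, whereas those of mbeta and m8 hold more G and C and open with a GAGA element. GC content of the window shown was 28.9% at mdelta, 24.8% at m3, 25.6% at m7 and 17.4% at m2, against 49.6% at mbeta and 54.7% at m8.

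The bHLH gene m7 (FBgn0002633, chr3R:26037038-26038019, plus strand) had the strongest peak of the 10 genes. Its summit lay 368 bp upstream of the TSS, with a signal of 1149 in the IDR list, where it was 312th of 7477. Signal has no unit common to the lists, and values were therefore compared within a list or by rank. In replicates 1, 2 and 3 the m7 peak had signals of 570.9, 295.6 and 310.0. Its ranks were 316, 323 and 293 of 30000, and its summits lay 356, 354 and 362 bp upstream. The 3 libraries thus placed it close to the same rank and within a few base pairs of the same position.

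The peak of mdelta (FBgn0002734, chr3R:25997621-25998633, plus strand), a bHLH gene known for its expression in photoreceptor precursors of the eye, was of similar strength. It lay 363 bp upstream, had a signal of 925.9 and was 390th in the IDR list. Its signals in replicates 1, 2 and 3 were 514.2, 228.7 and 194.1, at ranks 356, 463 and 576 and at 386, 322 and 365 bp upstream. Replicate 1 ranked it highest and replicate 3 lowest, and in each replicate list under 2% of the peaks were stronger, as were 5.20% of the IDR list. The gene CG43116 starts 625 bp away on the opposite strand, and the summit was nearer to that TSS, at 262 bp, than to that of mdelta, so the peak cannot be given to either gene.

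The peak of the bHLH gene m3 (FBgn0002609, chr3R:26021823-26023127, plus strand) lay 449 bp upstream, with a signal of 871.2 and rank 418 in the IDR list. Replicates 1, 2 and 3 gave it signals of 486.9, 226.2 and 172.3 at ranks 380, 468 and 726, with summits 426, 436 and 434 bp upstream. As at mdelta, its rank was highest in replicate 1 and lowest in replicate 3. The noncoding gene lncRNA:CR43644 starts 747 bp from m3, and its TSS was 298 bp from the summit.

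The Bearded family gene m2 (FBgn0002592, chr3R:26016514-26017470, minus strand) was the fourth with a summit well upstream, at 491 bp. It had a signal of 444.8 and rank 1564 in the IDR list. In replicates 1, 2 and 3 its signals were 226.0, 113.4 and 120.2 at ranks 1439, 2018 and 1719, with summits 484, 440 and 483 bp upstream. All 3 libraries placed it below the peaks of m7, mdelta and m3. It is also the member nearest to the 500 bp limit from inside. Nearest from outside was malpha, whose closest IDR summit was 1786 bp away.

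The peaks of the remaining 2 genes were weak and lay closer to the TSS. At mbeta (FBgn0002733, chr3R:26005046-26006023, minus strand), a bHLH gene with broad expression in the wing disc, the IDR summit was 200 bp upstream, with a signal of 199.9 and rank 5353. The strongest summits within 500 bp in replicates 1, 2 and 3 had signals of 86.21, 61.06 and 81.66 at ranks 5813, 5329 and 3474. They lay 36, 191 and 201 bp upstream, so replicate 1 placed its strongest summit elsewhere than the other libraries did. The replicate 1 summit that matched the IDR summit was weaker, with a signal of 42.13 at rank 11128.

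At m8 (FBgn0000591, chr3R:26040240-26041008, plus strand), the gene altered in the classical dominant Enhancer of split allele, the summit was 46 bp upstream. Its signal of 151.6 was 7159th in the IDR list, whose signals spanned 144.4 to 12214 with a median of 266.3. Replicates 1, 2 and 3 gave signals of 47.48, 32.98 and 67.03 at ranks 10051, 10617 and 4653, with summits 64, 126 and 40 bp upstream. Only in replicate 3 was this peak among the 7477 strongest, whereas those of m7, mdelta, m3 and m2 were among them in all 3 libraries.

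**Figure D1:**
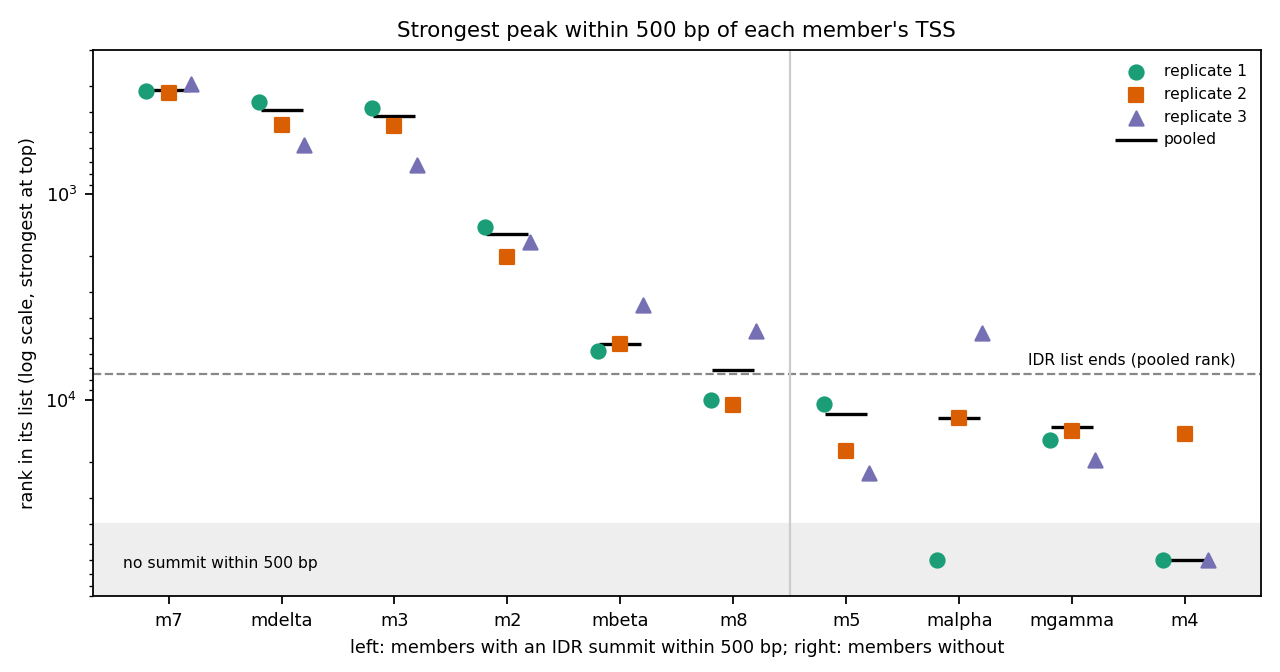
Rank of the strongest peak within 500 bp of each gene's TSS (vertical log axis, strongest at the top) in the 3 replicate lists (points) and the pooled list (bars), for the 6 genes with an IDR summit (left) and the 4 without (right). Points in the grey band had no summit in the window. Among the replicates, m7 holds ranks 293 to 323, while m8 and malpha pass the dashed line at 7477 in replicate 3 only. The pooled bar of m8, at rank 7159, also passes it.

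The 4 genes without an IDR peak had at most weak summits. The bHLH gene m5 (FBgn0002631, chr3R:26028854-26029735, minus strand) had a pooled summit 47 bp upstream with a signal of 86.98 at rank 11646 of 30000. Its signals in replicates 1, 2 and 3 were 45.41, 21.52 and 19.54 at ranks 10451, 17662 and 22640, with summits 18, 112 and 124 bp downstream. The 3 libraries each held a summit within 500 bp, in none of them among the strongest 7477, and only that of replicate 1 was within 100 bp of the pooled summit.

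The bHLH gene mgamma (FBgn0002735, chr3R:25999851-26000761, plus strand), which is active in neural stem cells, had a pooled summit 31 bp downstream of its TSS with a signal of 74.24 at rank 13489. Replicates 1, 2 and 3 gave signals of 29.00, 25.66 and 21.69 at ranks 15690, 14212 and 19659, with summits 36, 68 and 26 bp downstream. The Bearded family gene malpha (FBgn0002732, chr3R:26010893-26011568, plus strand) had a pooled summit 1 bp upstream with a signal of 81.77 at rank 12302. For malpha the libraries differed: replicate 1 had no summit within 500 bp, replicate 2 had one 447 bp upstream with a signal of 29.08 at rank 12213, and replicate 3 had one 1 bp downstream with a signal of 66.17 at rank 4743. The Bearded family gene m4 (FBgn0002629, chr3R:26023821-26024579, minus strand), whose product is an inhibitor of Neuralized, had no summit within 500 bp in the pooled list or in replicates 1 and 3. Replicate 2 alone had one, 83 bp downstream, with a signal of 25 at rank 14666.

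Over the whole complex, from the start of mdelta to the end of m8 (chr3R:25997621-26041008, 43.4 kb), the IDR list held 9 summits, or 2.07 per 10 kb, against 0.560 per 10 kb on 3R and 0.544 on all arms. The pooled list held 34, or 7.84 per 10 kb, against 2.18 on all arms. The arms were taken at full length, and these densities were not adjusted for how closely genes are spaced. Whether the complex held more peaks than other stretches as dense in genes was not tested. The 7477 strongest peaks of replicates 1, 2 and 3 included 9, 9 and 12 in the complex. The summit of mdelta lies just upstream of this span and is not among the 9. Each of the 9 had a summit within 100 bp in all 3 whole replicate lists, as had 86.1% of all IDR peaks. Among the strongest peaks of each list, 5 of the 9 (55.6%) did, against 60.1% of all IDR peaks. Each IDR peak of the complex had the same signal and rank in the pooled list, down to rank 7159 at m8. Having an IDR peak here therefore followed pooled rank, not the rank in each replicate. The m8 peak ranked 10051 and 10617 in replicates 1 and 2. All lists came from the same 3 libraries, so these shares describe the IDR list and are not separate evidence for it.

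Of the 9 summits, 5 belonged to members, and the other 4 lay more than 500 bp from the TSS of any member. The strongest of the 4, at chr3R:26008963-26009221 between mbeta and malpha, had a signal of 579.3 and rank 904. It ranked 640th, 2269th and 1507th in replicates 1, 2 and 3, above the peak of m2 in replicates 1 and 3 and below it in replicate 2. Its bases around the summit, chr3R:26009047-26009167 on the plus strand, are shown because it was the strongest peak in the complex away from any start site, and none of the marked motifs occurred in it.
peak between mbeta and malpha: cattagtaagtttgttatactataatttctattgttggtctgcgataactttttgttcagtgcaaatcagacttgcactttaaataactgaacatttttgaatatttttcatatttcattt
Like the windows of m7, mdelta, m3 and m2, this one is rich in A and T. The remaining 3 had signals of 254.2, 277.9 and 225.0, and 1 of them lay 289 bp upstream of Kaz-m1, the gene of a Kazal-type protease inhibitor.

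The IDR summits were spread unevenly. The longest interval without one ran 15296 bp, from the summit of m3 to that of m7, and held the m3 transcript, m4, m5 and E(spl)m6-BFM, a further Bearded family gene. The median interval between neighbouring IDR summits on 3R was 5697 bp. A longest interval and a median are unlike measures, so these values do not show that the stretch is unusual for 3R. The pooled list placed 11 summits in this stretch, none with a signal above 109.8.

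**Figure D2:**
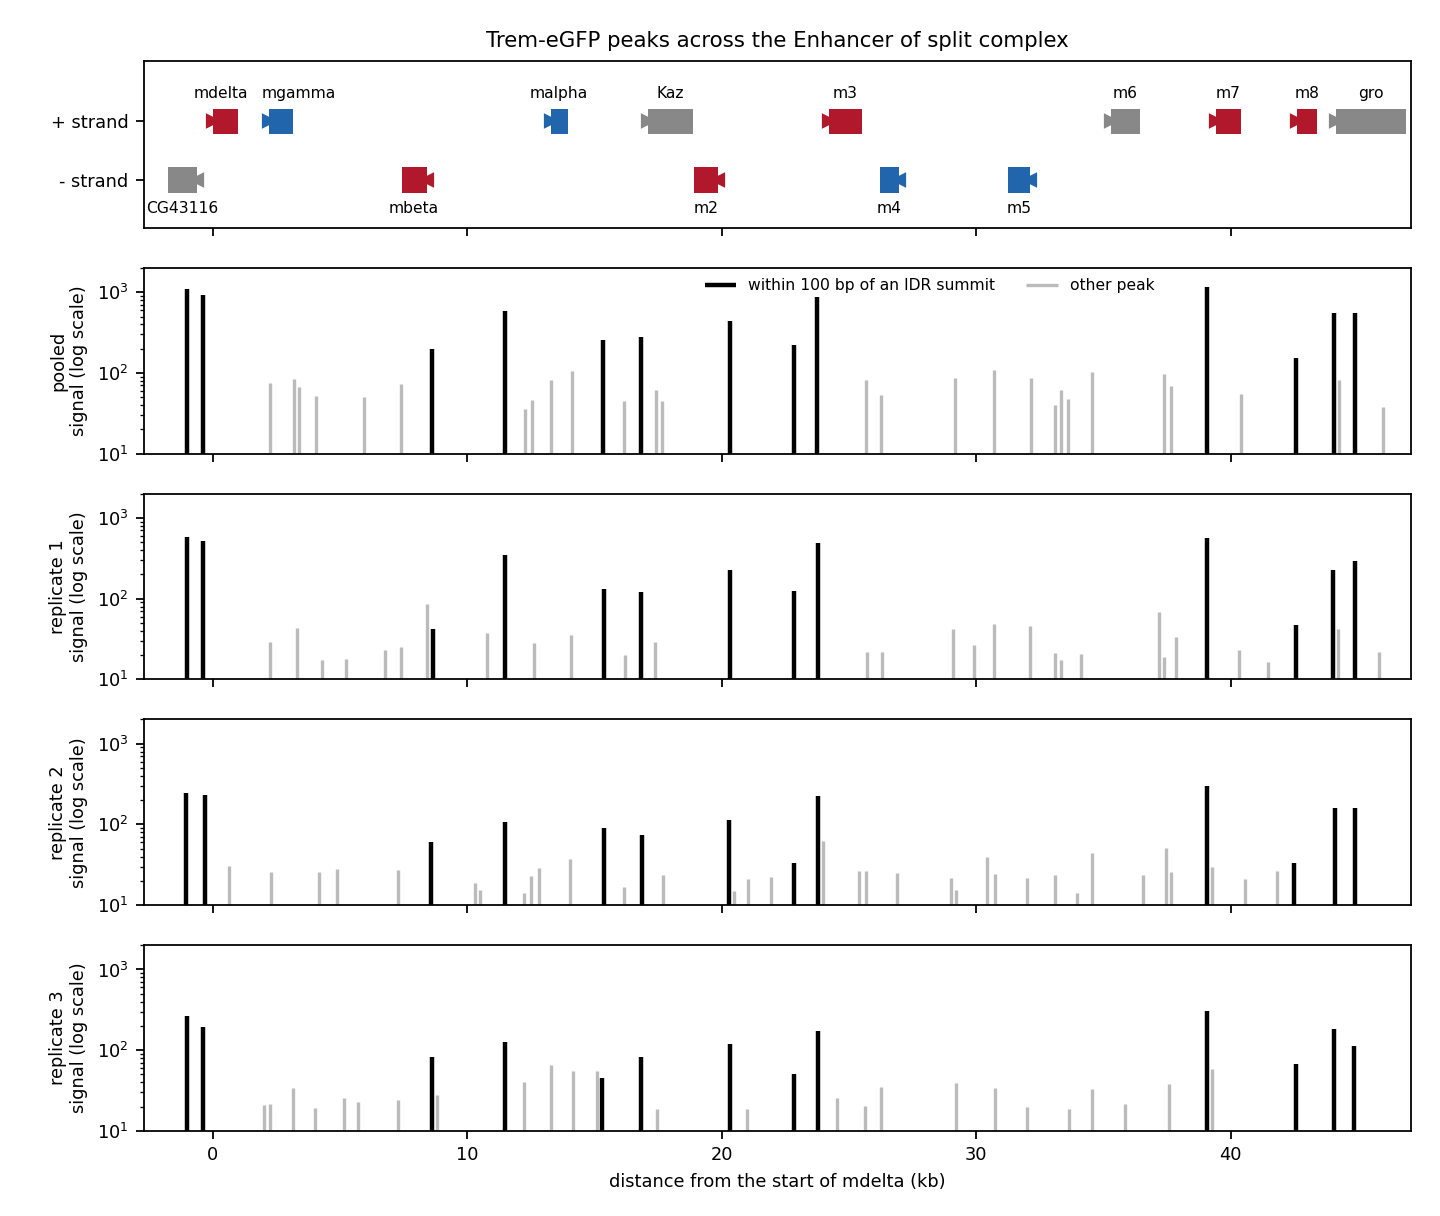
Map of the complex with its genes (top: red, members with an IDR summit within 500 bp; blue, members without; grey, other genes) and the signal of each peak (log axis) in the pooled and replicate lists, by distance from the start of mdelta in kb. Black lines are peaks within 100 bp of an IDR summit and grey lines are others; the tall lines upstream of m7, mdelta and m3 recur in all 4 lists, and no black line stands between m3 and m7.

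The members' summits lay farther upstream than those of most genes. Their median distance was 366 bp upstream, against 99.0 bp upstream over all 5818 protein-coding genes with an IDR summit within 500 bp. Distance was taken to the nearest TSS of a gene. Each member has 1 annotated TSS, as had 3737 of the 5818 genes. Genes with more TSSs can have shorter distances for that reason, and the values over all genes were not matched for it. Of the 6 members, 4 had their summit 350 to 500 bp upstream, where 5.84% of the 5818 genes had theirs. Among the 4, the summit of mdelta was nearer to the TSS of CG43116, at 262 bp. That of m3 was nearer to the TSS of lncRNA:CR43644, at 298 bp. The distances of these summits are therefore not particular to the members. Within 100 bp lay 1 of the 6, m8, against 48.8% of the 5818 genes. Among the 6, the 4 distant peaks were also the 4 strongest, with signals of 444.8 to 1149. Over all genes, those with a summit 350 to 500 bp upstream had a median signal of 274.3, and those with one within 100 bp a median of 296.1. The difference in distance between the members and other genes was not tested, because 6 genes of 1 cluster are not independent.

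**Figure D3:**
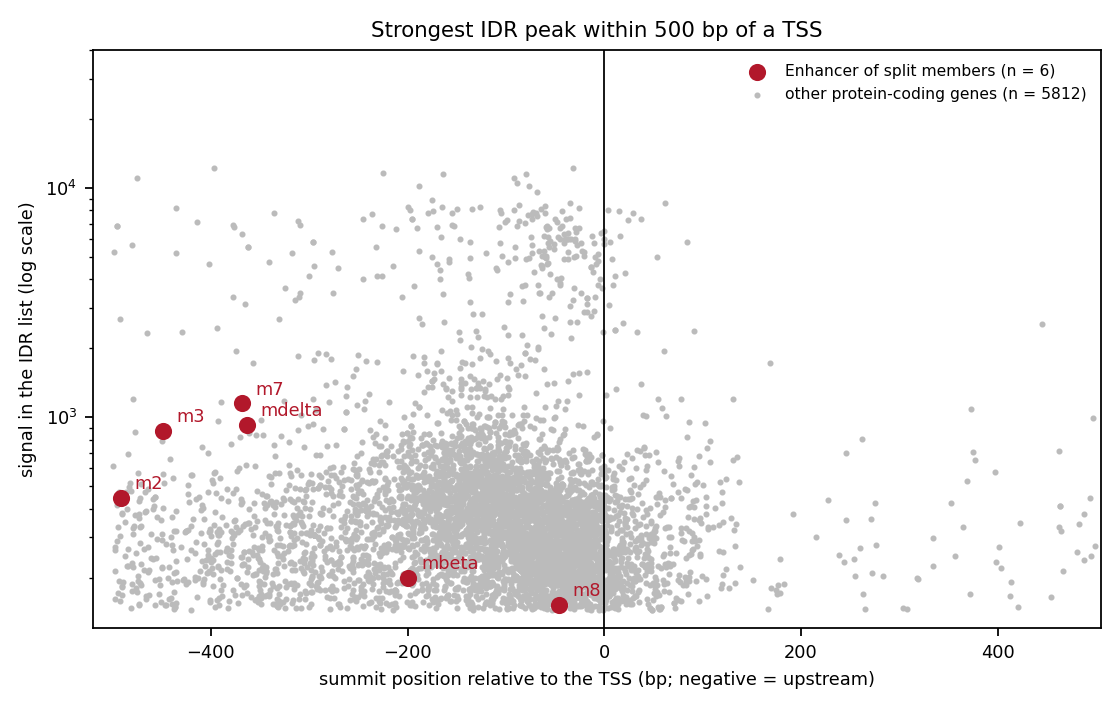
Signal in the IDR list (log axis) against summit position relative to the TSS (bp, upstream to the left) for the 6 members with an IDR summit (red) and 5812 other protein-coding genes (grey), taking the strongest peak within 500 bp. The members m2, m3, m7 and mdelta sit 363 to 491 bp upstream, away from the bulk of genes near the TSS, while mbeta and m8 sit low in the cloud. The summits of m3 and mdelta are nearer to the TSS of another gene.

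Base composition divided the same genes. Within 100 bp of the summit, GC content was 25.4% at m7, 21.9% at mdelta, 24.4% at m3 and 19.4% at m2, against a median of 34.8% over all IDR summits. These 4 values were all below 26.4%, the 10th percentile of IDR summits. At mbeta and m8 it was 49.3% and 48.8%, so that 94.9% and 94.5% of IDR summits had a lower GC content. The complex as a whole was not poor in GC, with a median of 46.8% over windows of the same size. The other 4 IDR summits in the complex had 32.8%, 22.9%, 23.4% and 29.4%, all below the median of the complex, while the 25 pooled summits in the complex that were not IDR peaks had a median of 46.8%, equal to it. Over all genes with an IDR summit within 500 bp, the median GC content was 38.3% for summits within 100 bp of the TSS, 32.8% for those 200 to 500 bp upstream and 35.1% for those 350 to 500 bp upstream. GC content can alter the recovery of fragments in sequencing, and its part in these signals was not tested.

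**Figure D4:**
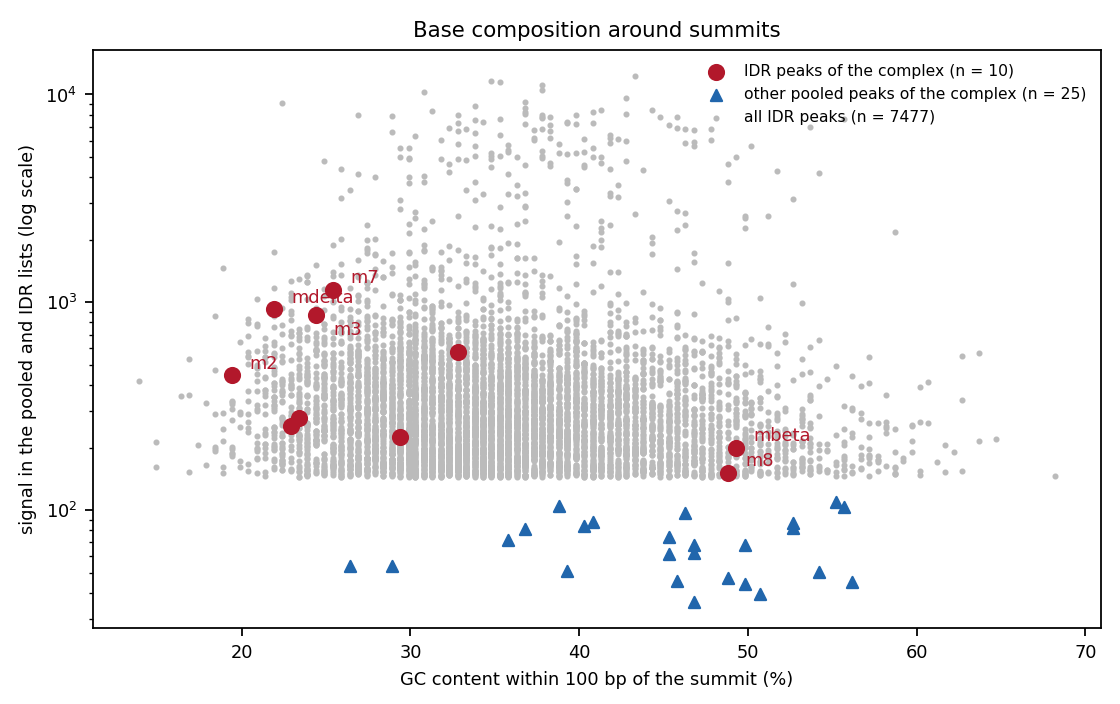
Signal in the pooled and IDR lists (log axis) against GC content within 100 bp of the summit (%) for the IDR peaks of the complex including that of mdelta (red, n = 10), its other pooled peaks (blue triangles, n = 25) and all IDR peaks (grey). The 4 strongest member peaks lie at the low-GC edge of the IDR peaks, and mbeta and m8 at high GC and low signal.

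Gene structure did not separate the members with an IDR peak from those without, and each had 1 transcript with 1 exon. The 6 with a peak were 769 to 1305 bp long (median 980) and the 4 without were 676 to 911 bp (median 820). The nearest TSS of another gene was 625 to 3202 bp away (median 1273) for the 6, against 1350 to 3820 bp (median 2966) for the 4. GC content of the 500 bp upstream of the TSS was 38.8 to 55.8% (median 43.7%) for the 6 and 47.0 to 55.8% (median 52.6%) for the 4. The ranges overlapped for each of these measures, and the sets are too few and too close together on the chromosome for a test.

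Matches to the Su(H) site, the element through which Notch acts on these genes, were more frequent in the members without a peak. The letters searched, on both strands, were CGTGGGAA, CGTGAGAA, TGTGGGAA and TGTGAGAA. In the 1000 bp upstream of the TSS, the 6 members with a peak held 8 matches, or 1.33 per gene, with 0 in mdelta, 1 in mbeta, 1 in m2, 0 in m3, 3 in m7 and 3 in m8. The 4 without held 16, or 4 per gene, with 4 in mgamma, 5 in malpha, 3 in m4 and 4 in m5. The counts overlapped at 3 matches, the number in m7 and m8 and also in m4. Over all protein-coding genes, 9.92% had a match in this window, with 0.105 per gene in those with an IDR summit and 0.107 in those without. The promoters of m4 and m5, chr3R:26024580-26024729 and chr3R:26029736-26029885, both minus strand, are shown as the 2 members without an IDR peak whose match lies close to the TSS, with the Su(H) match in capitals. It is the reverse complement of TGTGGGAA in m4 and of CGTGGGAA in m5.
m4: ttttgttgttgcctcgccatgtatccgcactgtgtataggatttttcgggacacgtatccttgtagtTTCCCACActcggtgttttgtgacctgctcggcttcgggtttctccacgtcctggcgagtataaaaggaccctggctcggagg
m5: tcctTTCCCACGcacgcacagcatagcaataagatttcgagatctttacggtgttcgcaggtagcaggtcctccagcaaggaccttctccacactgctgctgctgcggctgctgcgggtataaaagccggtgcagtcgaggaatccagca
These promoters carry a Su(H) match 79 bp upstream of m4 and 142 bp upstream of m5, and the windows end at the TSS.

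Where members with a peak had Su(H) matches, the matches mostly lay more than 100 bp from the summit. The match of mbeta was 88 bp from its summit. Those of m7 were 272, 297 and 566 bp from its summit, those of m8 were 149, 174 and 583 bp away, and that of m2 was 470 bp away. Within 100 bp of the 9 IDR summits of the complex, 1 of the 9 windows held a match, against 2.07% of all IDR windows. Within 250 bp it was 3 of the 9, against 5.12%. The windows of the complex thus did not hold fewer matches than IDR windows in general.

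Other motifs were counted in the 250 bp upstream of each TSS, on both strands. The IDR summits of mdelta, m2, m3 and m7 lay farther upstream than this window. The N-box CACNAG and the C-box CACGNG, to which bHLH proteins of this family bind, each occurred in 5 members, all with an IDR peak (mdelta, mbeta, m2, m7 and m8), against 23.9% and 13.8% of all promoters. The letters CACGAG match both, and were found in 4 of the 5, against 4.88% of all promoters. The GAGA element GAGAG occurred in 7 members, all 6 with a peak and malpha among those without, against 25.7% of promoters. The TATA box TATAAA occurred in 8 members, 5 of them with a peak, against 43.0%. An E-box CANNTG occurred in 6 members, 4 of them with a peak, against 68.7%. Its proneural form GCAGNTG, which contains an E-box, occurred in 3, 2 of them with a peak, against 12.9%. Su(H) letters occurred in 3 members within this window, m4, m5 and m8, of which m8 alone had a peak, against 2.53%. The initiator TCAGT occurred in 4 members, 3 of them with a peak, against 38.8%. The Zelda element CAGGTA occurred in 1, m5, which had no peak, against 5.43%. The DRE core TATCGATA and the M1BP core GGTCACAC, both common in promoters of broadly active genes, were in 0 of the 10, against 7.99% and 4.2% of promoters. These matches describe letters in a window and not binding.

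Around the summits themselves, within 100 bp, an E-box stood in 5 of the 9 IDR windows of the complex, against 59.0% of all IDR windows. TATAAA stood in 3, against 36.3%, and GAGAG in 3, against 19.6%. The N-box and the C-box each stood in 1 of the 9, against 19.2% and 10.1% of all IDR windows. The most frequent 8-letter word in the windows of the 200 strongest IDR peaks was CTGCCAAC, which occurred in 63.0% of them on either strand. It was chosen after the values were seen. It occurred in 2.75% of the peaks ranked after these 200, down to rank 1000, and in 0 of the 9 windows of the complex, none of whose peaks ranked above 312. The strongest peak on 3R, of rank 1 and signal 12214, is shown for contrast with the windows of the members, with this word in capitals (chr3R:7144632-7144722, plus strand).
strongest peak on 3R: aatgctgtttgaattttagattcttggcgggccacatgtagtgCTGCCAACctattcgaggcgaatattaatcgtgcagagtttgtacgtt
The signal of this peak was far above that of m7, the strongest among the members.

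Genes flanking and within the complex also had peaks. CG43116, head to head with mdelta, had the strongest peak of these, 373 bp downstream of its TSS in its intron, with a signal of 1092 and rank 327 in the IDR list, and ranks of 311, 424 and 352 in replicates 1, 2 and 3. On the other side, gro, which encodes the corepressor Groucho, had its strongest peak in an intron, 144 bp upstream of 1 of its 4 TSSs. That peak had a signal of 554.6 and rank 1005. A further gro peak of similar strength, with a signal of 550.8 and rank 1019, lay 60 bp upstream of the nearest gro TSS. Kaz-m1 had a signal of 277.9 at rank 3520. Nf1, the gene of the Ras regulator neurofibromin, had a signal of 437.1 at rank 1627, 65 bp upstream. E(spl)m6-BFM had no summit within 500 bp of its TSS in any of the lists.

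Related genes elsewhere were listed for comparison by the same 500 bp rule, beside the 41.7% of all protein-coding genes. The rule takes any TSS of a gene, and the share was 36.4% over genes with 1 annotated TSS. The lists were not matched to all genes in number of TSSs. In the Bearded family outside the complex, 0 of 4 genes found in the annotation had an IDR summit, among them BobA and Brd. In the Hairy family outside the complex it was 1 of 5, the pair-rule gene hairy (hry), with a signal of 164.4 at 1 bp upstream, while cwo and dpn had none. In the Achaete-scute complex, whose proneural genes the bHLH repressors act on, it was 0 of 4, among them ac and ase. Of genes of the Notch pathway, 17 of 20 had one, the strongest at numb, a Notch inhibitor (757.1), mib1, a ubiquitin ligase for Notch ligands (598.1), aph-1, a subunit of gamma-secretase (557.7), and Su(dx), a ubiquitin ligase for Notch (486.7). Among the pathway genes without one were fng, a glycosyltransferase that modifies Notch, and kuz, a protease that cleaves it.

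The genes elsewhere whose peak was most like that of m7 were found by the sum over the 3 replicate lists of absolute differences in log10 rank, among 6966 candidates. CG8036 was nearest (0.044), at ranks 330, 334 and 286, then CG3961 (0.056), at ranks 306, 316 and 316, and CG31638 (0.094), at ranks 275, 343 and 288. Their IDR summits lay 251, 326 and 115 bp upstream, with GC contents of 33.8%, 21.9% and 27.4%, so CG3961 was near m7 in position and base composition as well as in rank.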

How the data were processed

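Peak lists in narrowPeak format on dm6 were deposited by the authors. Per the text lists supplied with each sample, replicate peaks were called on 1 library against a control and pooled peaks on all 3 libraries, and the IDR list combines them. The replicate and pooled lists held 30000 peaks each and the IDR list 7477. The aligner, peak caller and IDR settings were not given in the sources used here. Each peak's signal is the authors' deposited value, in the unit of its own list. The deposited −log10 q-value was tied over the IDR list and was not used for ranking. Peak starts, ends and summit offsets were taken from the deposited lists and are printed counting from 1. Read counts were not analysed here, so depth is unknown and no counting interval is given.

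Python 3.11.15, pandas 2.3.3 and numpy 2.4.6 were used, with genes and TSSs from Ensembl release 115 (BDGP6.54) and bases from RefSeq (dm6). A gene had a peak when a summit was 500 bp or less from a TSS of the gene, and its strongest such peak was reported. Ranks order a list by signal. Summits within 100 bp counted as shared, and GC content was taken over 201 bp. Counting and motif searches were tested on simulated data. With 1 group no test between conditions was possible, and the SD over 3 replicates is the only error given. Named genes were the members, the genes within and next to the complex, up to 4 with the strongest peak and up to 2 without (alphabetical) from each list, and the 3 most like m7. Of the list entries, Dl and Side were matched by hand to Delta and Sidpn, and BobB and BobC were not matched. The members and lists were chosen with earlier results of these data known. Alternatives were other TSS windows, stricter and looser lists, other distances for shared summits, and leaving out each replicate. The number of columns left unused for want of a sample was 0.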

Additional observations from a re-analysis of the deposited data

How the results depend on the processing

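The count of 6 members with an IDR summit stayed at 6 with a window of 1000 bp and with the outermost start of each gene. It was 2 (mbeta and m8) with a window of 250 bp, against 36.9% of all protein-coding genes, since the other 4 summits lie farther out. It was 4 with the 3738 strongest IDR peaks, which leave out mbeta and m8, and 9 with the whole pooled list, against 58.8% of all protein-coding genes. With the 3738 strongest, the share of all protein-coding genes was 26.9% in place of 41.7%, and the complex held 5 IDR peaks in place of 9; with the whole pooled list it held 34. Fewer or more peaks enter by construction. Of the 9 IDR peaks in the complex, 9 were found in all 3 whole replicate lists and 5 among the strongest peaks of each.

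Leaving out each replicate in turn, and keeping IDR peaks among the strongest of the other 2 lists, gave 4 to 5 members, 33.4 to 34.5% of all genes and 6 peaks in the complex. The IDR list still came from all 3 libraries, the omitted one included. Peaks could therefore be lost but not gained, and this is not a fresh call without that library. Without replicate 2 or without replicate 3 mbeta and m8 were lost, and without replicate 1 m8 alone; m7, mdelta, m3 and m2 were called each time. The DRE and M1BP cores were in 0 of the 9 windows of the complex at 50, 100 and 250 bp around summits. Over all IDR windows the shares were 5.68, 9.09 and 13.1% for DRE. For M1BP they were 3.54, 7.01 and 11.5%. With shares this low, 0 of 9 windows does not set the complex apart. No paired analysis was possible because the series has 1 group. Signals cannot be compared between lists, the depth of the libraries is unknown, and weak peaks of a fixed-length list may enter or leave it with depth.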

Other observations

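Weak pooled summits stood at the ends of several members. A pooled summit lay within 250 bp of the annotated gene end in 6 of the 10 members, against 15.7% of all protein-coding genes (2188 of 13968). The nearest such summit was 36 bp from the end of mgamma, 34 bp for mbeta, 168 bp for malpha, 162 bp for m3, 69 bp for m4 and 1 bp for m7. Their signals in the pooled list were 84.31, 72.25, 104.5, 80.79, 53.84 and 54.16 in that order of genes, below the lowest IDR signal of 144.4, so none was an IDR peak. Pooled summits were denser in the complex than on all arms, at 7.84 against 2.18 per 10 kb, and the share of all genes does not allow for this. The measure was chosen after the values were seen, and no test was made.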
